A study of Homo sapiens with 4 samples.

Results

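CD36 and 9 further genes of fatty acid uptake and use were followed across 4 microarrays of A2780s cells, an established human epithelial ovarian cancer line. The members were found by gene name among the array probes that are no controls, and every probe of each was kept. CD36 was chosen by its measured fall against Ctrl in both knockouts, and the 9 others for their place beside it in fatty acid uptake. All 10 genes (CD36, FABP3, FABP4, FABP5, FABP7, LPL, PPARG, SCARB1, ACSL1 and CPT1A) were on the array, with 18 of its 41000 probes, and the whole array carried 29123 gene names. All 18 member probes passed the filter on dim probes, as did 38195 probes in all, which stand for 27196 gene names.

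Each array carried the RNA of 1 knockout (KO) clone, labelled with Cy5, against RNA of a mock-transfected A2780s control clone (Ctrl), labelled with Cy3. There were 2 GALNT3 KO clones, made with CRISPR-Cas9, and 2 clones labelled GALNT3/T6 KO, which combine the GALNT3 knockout with an shRNA against GALNT6. GALNT3 and GALNT6 encode enzymes that start O-glycosylation by adding N-acetylgalactosamine to proteins. Both groups therefore share the CRISPR step, the double-KO group alone carries an shRNA, and the effects of the shRNA and of its delivery cannot be told apart. Each value is the log2 of KO signal over Ctrl signal, with n = 2 clones a group, and no Ctrl was hybridized against another Ctrl, so the spread of the Ctrl is not part of the test against 0. KO was in Cy5 and Ctrl in Cy3 on every array. In a ratio against Ctrl, an effect of the dye on a probe therefore cannot be told apart from that of the knockout.

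Long-chain fatty acids reach a cell as free acids or are released from lipoproteins by lipases such as LPL. CD36, a scavenger receptor at the cell surface, takes up fatty acids and oxidized lipoproteins and also binds thrombospondins. SCARB1 is its relative that receives high-density lipoprotein. Inside the cell the fatty acid binding proteins (FABP) carry the acids, ACSL1 joins them to coenzyme A, and CPT1A admits them to the mitochondrion for oxidation. PPARG is a nuclear receptor that responds to fatty acids and is known to switch on CD36 and FABP4 in fat cells and macrophages. CD36 and FABP4 have a known place in ovarian cancer, where cells take up lipids from the fat tissue of the omentum.

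The probes that the results turn on are printed here, each 60 bases long and written 5′ to 3′ as the array files give it, with hg19 positions. They are shown because the genes with several probes did not read alike on all of them. The brightest CD36 probe, designed on a RefSeq mRNA, lies at chr7:80302711-80303343 on the plus strand, a span of 633 bases, so it joins parts of more than 1 exon. The other CD36 probe, from a partial mRNA described in the files as one exon, lies at chr7:80292448-80292507 on the plus strand. For FABP3 the mRNA probe is listed at chr1:31840317-31842266 on the minus strand, and a probe designed on an expressed sequence tag (EST) at chr1:31842525-31842584 on the opposite, plus strand. The FABP7 probe lies at chr6:123101576-123102264 on the plus strand. The PPARG probe, at chr3:12458499-12458558 on the plus strand, was printed 10 times on each array. Capitals mark runs of at least 8 bases that the FABP3 mRNA probe and the FABP7 probe share in their best ungapped alignment, in which 42 of 58 bases (72.4%) are identical. The other probes have no capitals.
CD36 A_23_P111583: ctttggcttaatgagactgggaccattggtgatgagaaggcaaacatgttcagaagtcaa
CD36 A_24_P925505: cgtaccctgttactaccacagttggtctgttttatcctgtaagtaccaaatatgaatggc
FABP3 mRNA A_24_P62783: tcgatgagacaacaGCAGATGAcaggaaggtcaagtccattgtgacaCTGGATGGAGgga
FABP3 EST A_32_P5673: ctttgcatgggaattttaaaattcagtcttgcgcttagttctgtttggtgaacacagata
FABP7 A_23_P134139: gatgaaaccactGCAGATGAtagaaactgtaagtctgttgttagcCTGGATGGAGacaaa
PPARG A_23_P252062: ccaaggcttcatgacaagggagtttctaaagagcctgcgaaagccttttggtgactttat

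Between 86.9% and 93.8% of the spots were well above background in a channel, none was saturated, and the 4 arrays, all on 1 slide, limit the precision. The single GALNT3 probe did not clear background in Cy5 or in Cy3 on the GALNT3 KO arrays, so it checks nothing there. In the clones labelled GALNT3/T6 KO its log2 ratio was 4.80 and 5.08, which goes against the label, and that group is named by its label throughout. GALNT6 stood at -0.47 and -0.38 in GALNT3 KO (adjusted p = 0.0445 from limma) and at -0.66 and -0.69 in the clones labelled GALNT3/T6 KO. The paper reports raised GALNT6 protein in its GALNT3 KO clones, whereas these values are of RNA. The ratios also drifted along the arrays. In the first of 5 equal bands of rows the median log2 ratio of all spots lay between 0.22 and 0.30 on the 4 arrays, and in the last between -0.19 and -0.15, a drift that the Agilent software had taken out of its own log ratios. It ran the same way on all arrays, so it bears on a ratio against Ctrl and much less on a difference between the groups. With this trend over the rows removed, the GALNT6 probe, at row 470, read -0.29 and -0.17 in GALNT3 KO. In the clones labelled GALNT3/T6 KO it then read -0.45 and -0.45.

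CD36 was lower than Ctrl on all 4 arrays and by both of its probes. These falls chose the gene, so they are described and not tested. With the brightest probe, A_23_P111583, the log2 ratio was -2.84 and -2.94 in the GALNT3 KO clones and -3.75 and -4.20 in the clones labelled GALNT3/T6 KO. The mean of -2.89 ± 0.07 (SD, n = 2) in GALNT3 KO leaves 13.5% of the Ctrl signal, and the mean of -3.98 ± 0.32 (SD, n = 2) in the clones labelled GALNT3/T6 KO leaves 6.36%. These sizes depended on the processing. The probe lies at row 423, and with the row trend removed the means were -2.64 and -3.71. Over all alternatives they ran from -3.07 to -1.655 in GALNT3 KO and from -4.55 to -2.004 in the clones labelled GALNT3/T6 KO. The smallest falls were those of the second probe. Among 27196 genes, ordered from the lowest ratio, CD36 was number 11 in GALNT3 KO and number 39 in the clones labelled GALNT3/T6 KO. In RNA from a cell population, fewer cells with a transcript and less of it per cell cannot be told apart.

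The normalized signals show which channel carries the change. In the Ctrl channel CD36 read 11.36, 11.05, 11.06 and 11.15 on the log2 scale, in array order with the GALNT3 KO arrays first. In the KO channel it read 8.51 and 8.11 for the GALNT3 KO clones, and 7.31 and 6.95 for the clones labelled GALNT3/T6 KO. The Ctrl signals thus spanned less than the gap to any KO signal, and the KO signals of the groups did not overlap, in the order Ctrl, GALNT3 KO, GALNT3/T6 KO. Both channels were well above background on all 4 arrays, so residual CD36 signal was measured in every clone.

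**Figure D1:**
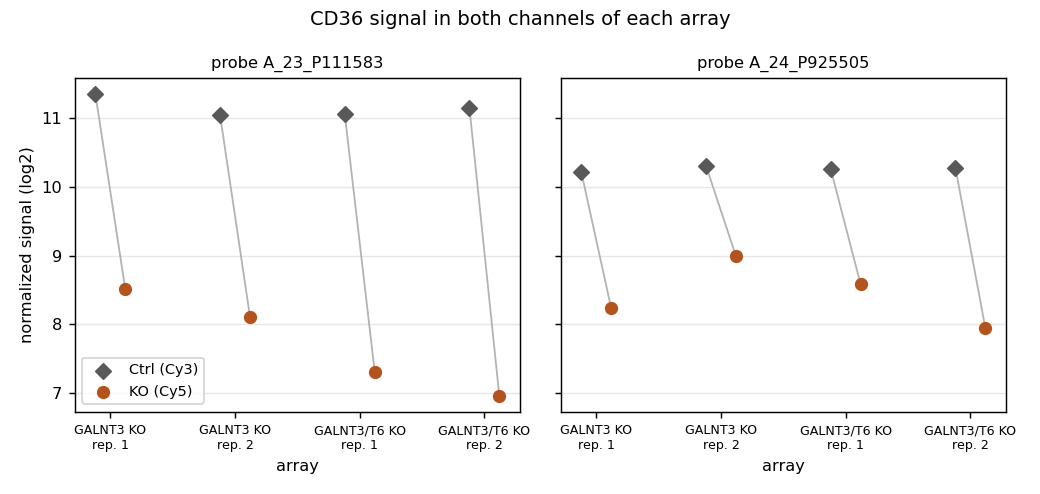
Normalized log2 signal of CD36 (vertical axis) in the Ctrl (Cy3, diamonds) and KO (Cy5, circles) channel of each of the 4 arrays, for probe A_23_P111583 on the left and A_24_P925505 on the right; grey lines join the channels of 1 array. The Ctrl signals sit near 11.2 and 10.3, and every KO signal lies below its Ctrl, with the lowest at 6.95 for A_23_P111583 on GALNT3/T6 KO replicate 2.

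The second CD36 probe, A_24_P925505, fell less and did not order the groups. Its log2 ratio was -1.99 and -1.32 in GALNT3 KO and -1.68 and -2.33 in the clones labelled GALNT3/T6 KO, with means of -1.655 ± 0.48 and -2.005 ± 0.46 (SD, n = 2 each). The Ctrl signal of this probe was steady, from 10.22 to 10.31, and the KO signal of GALNT3 KO ran from 8.23 to 8.99, across the range of 7.95 to 8.58 for the clones labelled GALNT3/T6 KO.

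The difference between the groups was not part of the rule and was tested. By the brightest probe CD36 was lower in the clones labelled GALNT3/T6 KO than in those with the single knockout, with a log2 difference of -1.08 (standard error 0.19, 95% interval -1.57 to -0.59, adjusted p = 0.0174 from limma over 27196 genes). This corresponds to a further 2.12-fold fall. For the second probe the difference was -0.35 (95% interval -1.19 to 0.49, adjusted p = 0.54 from limma over 38195 probes), an interval that also holds the difference of the first probe. The call was also lost with the mean of both probes (-0.72, adjusted p = 0.0872), without GALNT3 KO replicate 1 (-1.03, adjusted p = 0.163) and without replicate 2 (-1.13, adjusted p = 0.14), and across all alternatives the adjusted p ran from 0.000332 to 0.54.

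Of the 9 other members, 0 passed the adjusted threshold of 0.05 in GALNT3 KO by limma, where 11.2% of all genes did (4.79% higher and 6.44% lower), and 6 of them had an unadjusted p under 0.05, as had 35.6% of all genes. Their median log2 ratio was 0.16, beside 0.02 over all genes. In the clones labelled GALNT3/T6 KO, 2 rose (PPARG and FABP3), 1 fell (FABP5) and 6 did not pass, against 47.9% of all genes called (24.8% higher and 23.1% lower) beside 33.3% of these members. Here the median was 0.08 beside 0.03 over all genes. Between the groups 1 of all 10 members was higher in the clones labelled GALNT3/T6 KO (PPARG), 2 were lower (CD36 and FABP5) and 7 did not pass, with 23.7% of all genes called (11.9% in each direction). The first count rests on the spread that the 4 arrays share: with the GALNT3 KO arrays fitted alone, or with either array labelled GALNT3/T6 KO left out, 6 of the 9 passed in GALNT3 KO, where 34.7% of all genes did. Without GALNT3/T6 KO replicate 2 the second count rose from 3 to 6, with 47.5% of all genes called. With the Agilent log ratio its 3 calls were 1 higher and 2 lower, since ACSL1 passed and FABP3 did not. Without GALNT3 KO replicate 1 the third fell to 0, with 4.44% of all genes called, and without replicate 2 it fell to 1, with 5.23% of all genes called.

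SCARB1, the high-density lipoprotein receptor, had 3 probes, the brightest at chr12:125262225-125262284 on the minus strand (hg19). The brightest, A_23_P203900, gave -0.41 and -0.70 in GALNT3 KO (mean -0.56, adjusted p = 0.124 from limma). The clones labelled GALNT3/T6 KO gave -0.91 and -0.18, with a mean of -0.55 (adjusted p = 0.0762). All 4 values lay below 0, but the replicates labelled GALNT3/T6 KO differed by more than the group means did. Without GALNT3/T6 KO replicate 2 this fall was called (-0.91, adjusted p = 0.00103, with adjusted p between 0.00103 and 0.893 across the alternatives). The second probe, A_23_P369201 at row 447, gave a mean of -0.42 in the clones labelled GALNT3/T6 KO (adjusted p = 0.0251 by limma over all probes). The third, A_24_P324565, gave -0.02 there (adjusted p = 0.893). With the row trend removed the second probe read -0.29 and -0.06 and the third 0.11 and 0.21 in these clones. By the Agilent log ratio they read -0.35 and -0.01, and 0.20 and 0.21.

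LPL, the lipase that frees fatty acids from lipoproteins, was near the limit of detection. Its probe was well above background in neither channel on GALNT3 KO replicate 1, and not in the Ctrl channel on GALNT3/T6 KO replicate 2. The log2 ratios were -0.02 and 0.35 in GALNT3 KO and 0.09 and 0.30 in the clones labelled GALNT3/T6 KO, and no comparison passed. The interval of its mean ran from -0.16 to 0.49 in GALNT3 KO and from -0.13 to 0.52 on the other arrays, the former resting on 1 array above background.

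FABP5, the epidermal fatty acid binding protein, fell in the clones labelled GALNT3/T6 KO. Its brightest probe, A_23_P59877, gave 0.37 and 0.30 in GALNT3 KO, with a mean of 0.33 ± 0.05 (SD, n = 2, adjusted p = 0.114 from limma). The clones labelled GALNT3/T6 KO gave -1.75 and -2.09, with a mean of -1.92 ± 0.24 (SD, n = 2, adjusted p = 0.000447), or 26.4% of the Ctrl signal. The groups differed by -2.25 (standard error 0.16, adjusted p = 0.0015), a 4.77-fold difference, with no overlap.

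All 4 FABP5 probes gave this fall, with means from -1.504 to -2.24 in the clones labelled GALNT3/T6 KO and differences between the groups from -1.70 to -2.33, each passing over all probes. In GALNT3 KO they spread from -0.003 for A_24_P7642 to 0.67 for A_24_P673063, which alone passed there (adjusted p = 0.0376 over all probes). A_24_P673063 lay at row 166, A_32_P204676, with a mean of 0.09, at row 329, A_24_P7642 at row 362 and the brightest probe at row 446. With the row trend removed the brightest probe read 0.585 and 0.56 in the GALNT3 KO clones. There A_24_P673063 read 0.59 and 0.47, A_32_P204676 0.25 and 0.20 and A_24_P7642 0.21 and 0.16. The part of the row in this spread was not tested. A_24_P7642 and the brightest probe are listed at the same position and differ at 3 of 60 bases. FABP5 has near-identical pseudogene copies, so a share of these signals may come from them and the gene is uncertain to that extent. The difference lost its call without GALNT3 KO replicate 1 (-2.22, adjusted p = 0.0507), while the fall against Ctrl passed under every alternative (adjusted p from 3.15e-06 to 0.011).

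FABP3, the heart fatty acid binding protein, depended on the probe. By the brightest probe, designed on the EST and listed on the opposite strand, it rose in the clones labelled GALNT3/T6 KO, at 0.41 and 0.36 for a mean of 0.38 (adjusted p = 0.0188 by limma), after 0.01 and 0.11 in GALNT3 KO. By the mRNA probe, A_24_P62783, it fell, at -0.59 and -0.62 with a mean of -0.61 (adjusted p = 0.0113 over all probes), after -0.31 and 0.04 in GALNT3 KO. The listed strands of the probes are opposite, and the KO channel of the mRNA probe was not well above background on GALNT3/T6 KO replicate 2. Neither probe passed between the groups (0.33, adjusted p = 0.124 and -0.47, adjusted p = 0.1005 over all probes). The rise by the EST probe was lost with the Agilent log ratio (0.27, adjusted p = 0.0864 by limma). It was also lost with only the arrays of the group fitted (adjusted p = 0.0626) and with a replicate block (adjusted p = 0.06). Of 17 alternatives 7 kept the call, 8 lost it and 2, which brought in the mRNA probe, turned its sign. Over the alternatives that kept the EST probe alone and an adjusted p the range was 0.0181 to 0.0864.

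FABP4 and FABP7, the fat cell and brain forms, showed no change that passed. FABP4 gave 0.01 and 0.12 in GALNT3 KO and 0.18 and -0.01 in the clones labelled GALNT3/T6 KO, with a difference between the groups of 0.02 (95% interval -0.32 to 0.36, adjusted p = 0.95 from limma). FABP7 gave 0.29 and 0.31 in GALNT3 KO (adjusted p = 0.134) and 0.25 and -0.09 in the clones labelled GALNT3/T6 KO, with a difference of -0.22 (95% interval -0.63 to 0.19, adjusted p = 0.424). Both intervals exclude a fall between the groups of the size seen for FABP5.

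PPARG rose in the clones labelled GALNT3/T6 KO. The mean of its spots gave 0.43 and 0.35 in GALNT3 KO, with a mean of 0.39 ± 0.06 (SD, n = 2, adjusted p = 0.0609 from limma). In the clones labelled GALNT3/T6 KO it gave 1.74 and 1.54, with a mean of 1.64 ± 0.14 (SD, n = 2, adjusted p = 0.000398), a 3.11-fold rise. The groups differed by 1.245 (standard error 0.13, adjusted p = 0.00432) with no overlap. The Ctrl signal was steady on the 4 arrays, from 10.41 to 10.47 on the log2 scale. The rise against Ctrl passed under every alternative (adjusted p from 1.07e-05 to 0.0102), whereas the difference was not called when GALNT3 KO replicate 1 (adjusted p = 0.0717) or replicate 2 (0.0733) was left out, in a range of 0.000276 to 0.0733.

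The 10 PPARG spots lie between rows 28 and 518 and their spread on an array includes the drift along the rows. On GALNT3 KO replicate 1 they ran from 0.02 to 0.63, on replicate 2 from -0.01 to 0.63, on GALNT3/T6 KO replicate 1 from 1.26 to 2.16 and on replicate 2 from 1.04 to 1.98. The lowest spot on an array labelled GALNT3/T6 KO lay above the highest on a GALNT3 KO array. The SD between spots was 0.20 to 0.37, and it was 0.10 to 0.19 with the row trend removed and 0.06 to 0.10 with the Agilent log ratio.

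**Figure D2:**
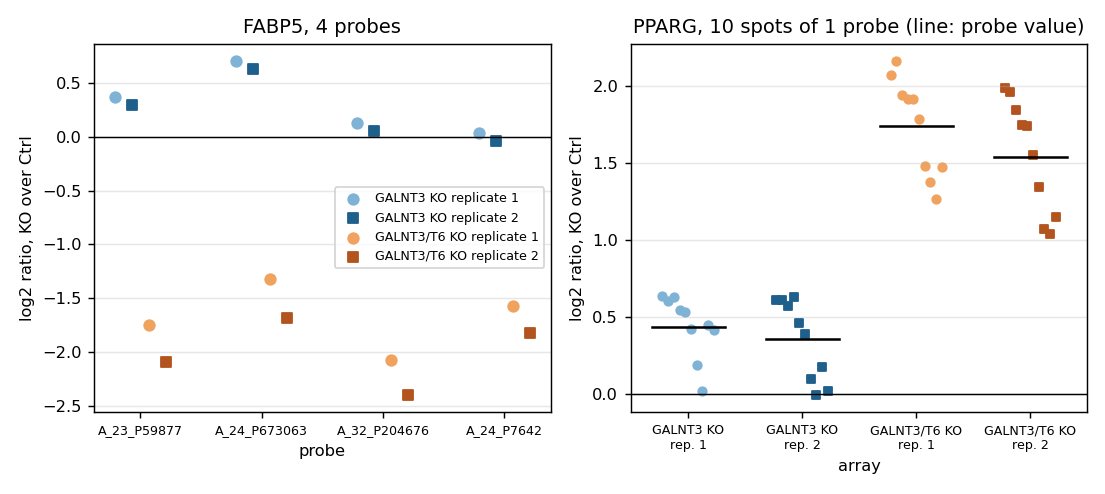
Left, log2 ratio of KO over Ctrl for the 4 FABP5 probes on each array; right, the 10 spots of the PPARG probe on each array in the order of their rows, with a line at the value of the probe. All FABP5 probes lie below -1.3 in the clones labelled GALNT3/T6 KO, and the PPARG spots of the last 4 rows lie below those of the first 4 on each array, yet the groups stay apart (lowest 1.04, highest 0.63).

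ACSL1 and CPT1A, at the steps of activation and mitochondrial entry, did not pass in any comparison with the settings used here. Their brightest probes are listed at chr4:185676732-185676745 and chr11:68527063-68527122 on the minus strand (hg19). ACSL1 gave 0.43 and 0.44 in GALNT3 KO (adjusted p = 0.0891 from limma) and -0.41 and 0.03 in the clones labelled GALNT3/T6 KO. Its groups differed by -0.63 without overlap (95% interval -1.10 to -0.15, adjusted p = 0.0719), which passed with the Agilent log ratio (-0.82, adjusted p = 0.0284) and without GALNT3/T6 KO replicate 2 (-0.84, adjusted p = 0.00371), in a range of 0.00371 to 0.312. CPT1A gave -0.73 and -0.38 in GALNT3 KO (adjusted p = 0.071) and -0.53 and -0.15 in the clones labelled GALNT3/T6 KO (adjusted p = 0.108). Without GALNT3/T6 KO replicate 2 both falls against Ctrl were called, CPT1A at -0.53 (adjusted p = 0.0219) and ACSL1 at -0.41 (adjusted p = 0.0335), and without replicate 1 they stood at -0.15 and 0.03. ACSL1 also passed with the Agilent log ratio (-0.42, adjusted p = 0.0497). Over all alternatives the adjusted p ran from 0.0219 to 0.642 and from 0.0335 to 0.894. The CPT1A probe A_23_P104563 lies at row 499, and the second probe, A_24_P347065 at row 187, gave -0.08, 0.06, 0.02 and 0.24. With the row trend removed the first probe read -0.63, -0.22, -0.38 and 0.03 and the second -0.19, -0.08, -0.12 and 0.13.

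Around the members, 172 genes in 7 lists were read, of which 163 passed the filter. The lists cover transporters, acyl-CoA synthetases, oxidation enzymes, nuclear receptors, lipases and lipoprotein receptors, triglyceride synthesis with lipid droplets, and the ligands, partners and kinases of CD36. In GALNT3 KO, 8 of the 163 rose and 10 fell, together 11% beside 11.2% of all genes. In the clones labelled GALNT3/T6 KO, 53 rose and 43 fell, together 58.9% beside 47.9% of all genes. Between the groups 40 were higher and 32 lower in the clones labelled GALNT3/T6 KO, together 44.2% beside 23.7%. The counts in GALNT3 KO fell to 1 higher and 4 lower with the Agilent log ratio, to 2 and 5 with the row trend removed, stood at 5 and 14 with median centring, and fell to 0 with either GALNT3 KO replicate left out (also 0 genes of the whole array, with 4685 and 3251 at an unadjusted p under 0.05 by limma).

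**Figure D3:**
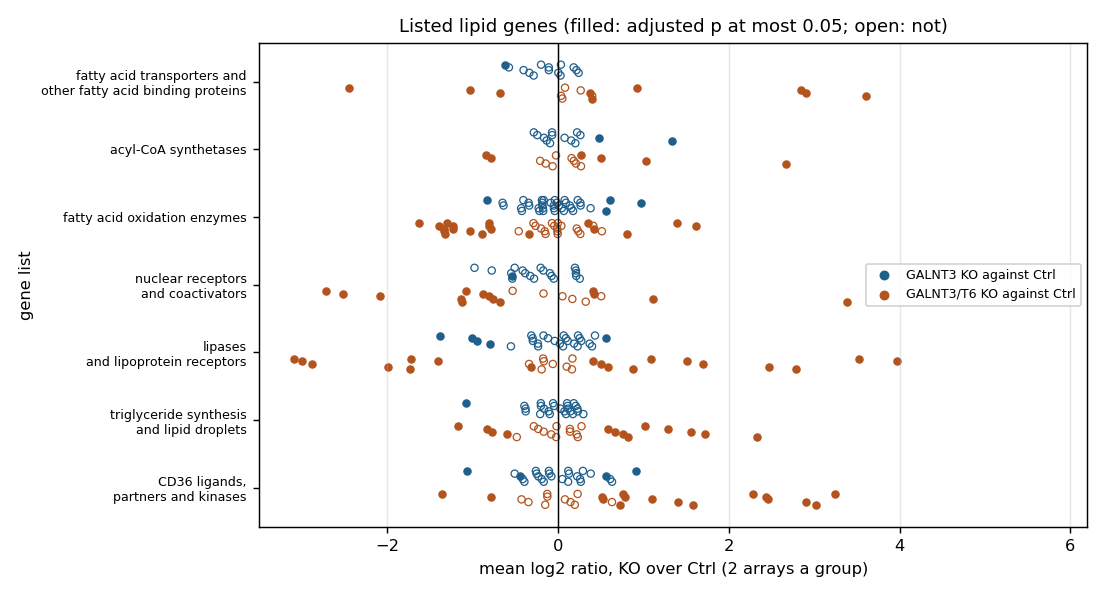
Mean log2 ratio of KO over Ctrl (horizontal axis, 2 arrays a group) of the 163 listed genes, by list, with GALNT3 KO in blue above and GALNT3/T6 KO in orange below; filled points passed an adjusted p of 0.05 and open points did not. The GALNT3 KO points lie between -1.39 and 1.34, and the others between -3.09 and 3.97.

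Among the transporters and binding proteins, 6 of 14 rose and 3 fell in the clones labelled GALNT3/T6 KO, with a median of 0.32 (64.3% called, beside 47.9% of all genes). CAV1, which coats caveolae and is known to help bring CD36 to the surface, gave 3.38 and 3.83 there (mean 3.60, adjusted p = 0.000273 from limma) after -0.82 and -0.33 in GALNT3 KO. Its partner CAV2 gave 2.84 and 2.86 (mean 2.85), and SLC27A2, a fatty acid transporter with acyl-CoA synthetase activity, gave 2.83 and 2.97 (mean 2.90). These 3 genes stood apart from GALNT3 KO by 4.18, 2.85 and 3.101. In GALNT3 KO 1 gene of this list passed, the acyl-CoA binding protein DBI, which fell by 0.63 and lost its call with the row trend removed (adjusted p = 0.0591).

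The nuclear receptors and coactivators, the setting in which PPARG works, had 10 of 20 genes lower and 4 higher in the clones labelled GALNT3/T6 KO, with a median of -0.61 (70% called, beside 23.1% lower and 24.8% higher over all genes). RXRA, which pairs with PPARG on DNA, fell to -3.05 and -1.99 (mean -2.52, adjusted p = 0.00229 from limma), but the mean of all its probes was -0.40 (adjusted p = 0.0471). PPARGC1B, a coactivator of mitochondrial genes, fell to -2.32 and -3.11 (mean -2.71). CEBPB, a transcription factor that acts ahead of PPARG in fat cell development, rose to 3.26 and 3.50 (mean 3.38, adjusted p = 0.000107). PPARG and CEBPB were therefore higher and RXRA lower on the same arrays. In GALNT3 KO only ESRRA passed in this list (-0.54, adjusted p = 0.0472), and not with the row trend removed or with the Agilent log ratio.

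The oxidation enzymes fell in 14 of 37 cases and rose in 5 in the clones labelled GALNT3/T6 KO, with a median of -0.16 and 51.4% called, close to the 47.9% of all genes. ETFB, which passes electrons from acyl-CoA dehydrogenases, gave -1.74 and -1.51 (mean -1.63), and CPT1C, the brain relative of CPT1A, gave -1.48 and -1.30 (mean -1.39). ACOX2, a peroxisomal oxidase, rose there but unevenly, at 0.98 and 2.26 (mean 1.62, adjusted p = 0.0135 from limma). HADHA, the trifunctional protein of mitochondrial oxidation, differed from GALNT3 KO by -1.38 on the log2 scale. In GALNT3 KO 3 of 37 rose and 1 fell, together 10.8% beside 11.2% of all genes. There DECR1 rose (0.98), as did CRAT (0.61), and ACOX3 fell (-0.83). CRAT lost its call with the Agilent log ratio (0.397, adjusted p = 0.144 by limma) and with the row trend removed (0.404, adjusted p = 0.0833).

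Among the acyl-CoA synthetases 4 of 14 rose and 2 fell in the clones labelled GALNT3/T6 KO (42.9% called, beside 47.9% of all genes). ACSS1, which activates acetate in mitochondria, gave 2.47 and 2.87 (mean 2.67), ACSS2 in the cytosol gave 0.55 and 1.51 (mean 1.03), and ACSF3 fell to -0.91 and -0.79 (mean -0.85). In GALNT3 KO 2 of 14 rose and 0 fell (14.3% called, beside 11.2% of all genes), ACSS3 and ACSL6 with means of 1.34 and 0.48. With the mean of all its probes ACSS3 stood at 0.72, and ACSL6 lost its call with the row trend removed (0.26, adjusted p = 0.151 by limma). ACSS3 stood at -0.60 and -0.98 on the other arrays, a log2 difference of -2.13 (adjusted p = 0.00876 from limma).

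Of the lipases and lipoprotein receptors, 11 of 27 were higher and 8 lower in the clones labelled GALNT3/T6 KO (70.4% called, beside 47.9% of all genes). VLDLR, which takes up triglyceride-rich lipoproteins, gave 3.51 and 4.43 (mean 3.97). OLR1, like CD36 a receptor for oxidized low-density lipoprotein, gave 3.21 and 3.85 (mean 3.53). ANGPTL4, an inhibitor of LPL, fell in both groups, to -1.49 and -1.28 in GALNT3 KO (mean -1.39, adjusted p = 0.0235 from limma) and to -3.37 and -2.81 on the other arrays (mean -3.09, adjusted p = 0.000327). APOE, the lipoprotein ligand of these receptors, differed from GALNT3 KO by -2.57 on the log2 scale. LRP8, a receptor of the same family as VLDLR, fell in GALNT3 KO by 0.94 (adjusted p = 0.023 from limma).

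In triglyceride synthesis and lipid droplets 9 of 25 genes rose and 4 fell in the clones labelled GALNT3/T6 KO (52% called, beside 47.9% of all genes). PLIN2, the coat protein of lipid droplets in most cells, gave 1.51 and 1.59 (mean 1.55, adjusted p = 0.000321 from limma) after -0.37 and -0.39 in GALNT3 KO. AGPAT3 and LPIN2, enzymes on the way to triglyceride, gave means of 2.33 and 1.72. FITM2, which helps droplets to form, was the 1 gene of the list that passed in GALNT3 KO, at -0.97 and -1.18 (mean -1.07).

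Of the ligands, partners and kinases of CD36, 14 of 26 rose and 2 fell in the clones labelled GALNT3/T6 KO, with a median of 0.58 (61.5% called, beside 47.9% of all genes). The tetraspanin CD9, a membrane partner of CD36, went in opposite directions, with -0.99 and -1.15 in GALNT3 KO (mean -1.07, adjusted p = 0.0131 from limma) and 3.22 and 3.27 on the other arrays (mean 3.25, adjusted p = 9.62e-05). ITGA3, an integrin subunit, gave 2.89 and 3.15 there and was not well above background on 1 of the GALNT3 KO arrays. THBS2, a thrombospondin and so a ligand of CD36, gave 2.34 and 3.47 (mean 2.90). In GALNT3 KO VAV3, a guanine nucleotide exchange factor, and the kinase YES1 rose, with means of 0.91 and 0.56. VAV3 stood at -1.30 and -1.43 on the other arrays, a log2 difference of -2.28.

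Of the genes named from these lists, 19 of 21 kept their call against Ctrl in the clones labelled GALNT3/T6 KO under every alternative, with ACOX2 and ACSS2 as the exceptions. Their sizes held less well: with the mean of all probes of a gene RXRA moved to -0.40, ACSS1 to 1.26, CEBPB to 1.84, LPIN2 to 1.001, ACSF3 to -0.49 and ACSS2 to 1.88, and without GALNT3/T6 KO replicate 2 ACSS2 stood at 0.55 and ACOX2 at 0.98. All 13 named in GALNT3 KO lost it with a GALNT3 KO replicate left out, a setting that called no gene of the whole array and so cannot tell these apart. With the Agilent log ratio 9 of the 13 lost it, and 7 with the row trend removed. VAV3 and YES1 lost it with the mean of all probes too (0.37 and 0.13, adjusted p = 0.0526 and 0.256 by limma). Sizes moved here as well, with ESRRA at -0.26 by the Agilent log ratio, and LRP8 at -0.61 and ACSS3 at 0.72 by the mean of all probes. Between the groups 14 of 21 lost their call with a GALNT3 KO replicate left out.

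CD36 lies on chromosome 7, and 3 further genes had a probe within 1000 kb of its probes. SEMA3C, a secreted guidance protein listed 69.1 kb away on the minus strand, went the opposite way from CD36 in the clones labelled GALNT3/T6 KO, at 1.37 and 1.83 (mean 1.60, adjusted p = 0.0017 from limma over all probes), after -0.06 and 0.35 in GALNT3 KO. GNAI1, a G protein subunit 444.1 kb away on the other side, gave -0.56 and -0.49 in GALNT3 KO (mean -0.53, adjusted p = 0.0325) and -0.27 and -0.24 on the other arrays. The unnamed transcript THC2496213, listed 2.66 kb from the CD36 probes on the opposite strand, gave values from -0.05 to 0.32 and did not pass. None of the 3 fell by as much as CD36.

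**Figure D4:**
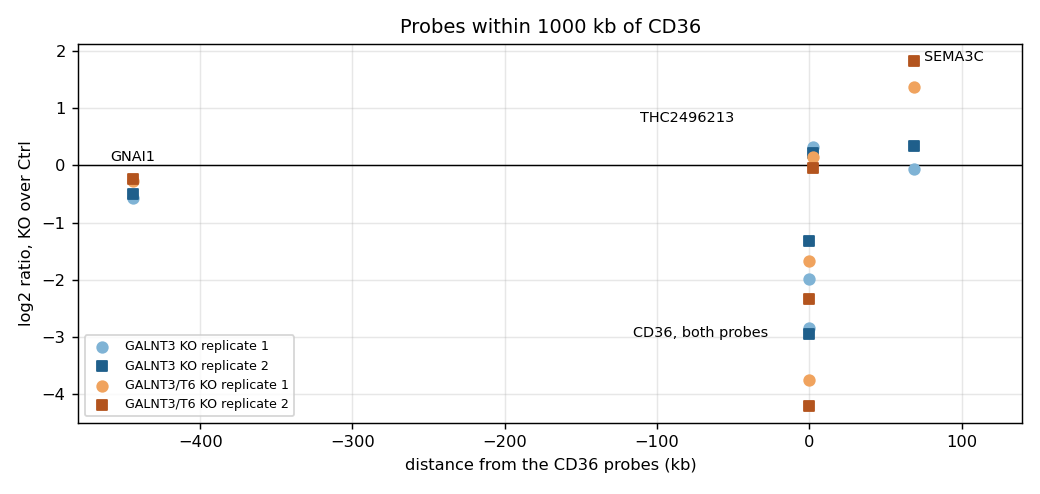
Log2 ratio of KO over Ctrl (vertical axis) of every probe within 1000 kb of the CD36 probes against its distance from them in kb (horizontal axis), with GALNT3 KO in blue and GALNT3/T6 KO in orange. The CD36 values lie between -4.20 and -1.32, those of GNAI1 and THC2496213 between -0.56 and 0.32, and SEMA3C reaches 1.83.

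By Euclidean distance over the 4 log2 ratios, the 5 genes nearest to CD36 among 27196 were ARPP21, PTN, GRIA2, KLHL14 and HOXC12, at distances of 0.73 to 0.85. PTN, the growth factor pleiotrophin on the same chromosome, gave -3.05 and -3.18 in GALNT3 KO and -3.67 and -3.54 in the clones labelled GALNT3/T6 KO. GRIA2, a glutamate receptor subunit, gave -2.30 and -2.60, then -3.44 and -3.90. ARPP21 was well above background in the KO channel on no array and HOXC12 on 2 of 4, so their ratios are not exact. No member of the set was among the 5.

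The labelled cell type was checked against fixed markers. All 8 markers of ovarian carcinoma epithelium had probes, and 7 were well above background in Ctrl on all 4 arrays. Their summed level ran from 12.57 to 14.65 on the log2 scale in Ctrl, from 12.76 to 12.90 in GALNT3 KO, and from 18.99 to 19.01 in the clones labelled GALNT3/T6 KO, where KRT18 gave 5.41 and 5.96. The Ctrl channel also differed between arrays for some of these markers and not for others. KRT8 read 10.76 and 10.94 in Ctrl on the GALNT3 KO arrays and 13.55 and 13.95 on the others. CDH1 read 7.47 and 7.51 in Ctrl on the GALNT3 KO arrays and 7.47 and 7.35 on the others. For CD36, PPARG and FABP5 the Ctrl signals of the 4 arrays spanned 11.05 to 11.36, 10.41 to 10.47 and 13.58 to 13.86 on the log2 scale. For cell types that carry much CD36, all 6 macrophage and monocyte markers were above background in every channel. Of all spots 86.9% to 93.8% were so in a channel, so such counts, for epithelium too, set no cell type apart. The macrophage and monocyte sums were 12.33 to 12.66 in Ctrl, 12.98 to 13.04 in GALNT3 KO and 12.99 to 13.02 in the clones labelled GALNT3/T6 KO. The 5 platelet markers, also all above background, ran from 11.63 to 11.73, from 12.09 to 12.28 and from 12.79 to 13.07. Of the 5 adipocyte markers LEP was above background nowhere, and the sums were 11.99 to 12.07, 11.90 to 12.05 and 11.04 to 11.18. Of the 5 endothelial markers PECAM1 was above background nowhere, and the sums were 10.98 to 11.40, 11.61 to 11.84 and 12.01 to 12.15. These sums rest on a few markers. In the clones labelled GALNT3/T6 KO some of these markers passed as higher by limma, as did 24.8% of all genes. They were 6 of 8 epithelial markers (PAX8, WT1, KRT7, KRT8, KRT18 and CDH1) and 3 of 6 macrophage markers (CD68, CSF1R and ITGAM). So were 1 of 5 platelet markers (GP9) and 3 of 4 measured endothelial markers (KDR, VWF and TEK). Of 4 measured adipocyte markers CIDEC passed as higher and LIPE as lower. CD14 stood at 0.06 and 0.12, PTPRC at 0.05 and 0.07, PF4 at -0.11 and -0.44 and CDH5 at -0.16 and -0.13. In GALNT3 KO 1 of 6 macrophage markers (ITGAM), 1 of 5 platelet markers (GP9) and 1 of 4 measured endothelial markers (KDR) passed as higher, as did 4.79% of all genes. Of the 8 epithelial and 4 measured adipocyte markers 0 passed there. The part of these marker levels in the results was not tested.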

How the data were processed

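Per the file headers, the authors scanned 2-colour Agilent whole human genome arrays and extracted, for each spot, the mean intensity and the median background intensity of both channels with Agilent Feature Extraction (version 8.5.1.1 in the submitters' notes, 10.7.3.1 in the file headers). The deposited log10 ratios, Cy5 (KO) over Cy3 (Ctrl), are background-subtracted, dye-normalized and detrended over the array, and the series' value table repeats them. By the labels no dyes were swapped, and the methods speak only of a reverse-color label for Ctrl.

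From the intensities, limma 3.58.1 in R 4.3.3 applied normexp background correction (offset 50) and loess within each array, with control and outlier spots given no weight, and averaged the spots of a probe. Probes had to pass the detection flag in Cy3 or in Cy5 on both arrays of 1 group or the other, and of those left to a gene the brightest stands for it. lmFit and eBayes gave 1 mean per group over all 4 arrays and the difference between them, with Benjamini-Hochberg adjustment over 27196 genes, or 38195 probes where single probes are given. The fit was tested on simulated data on these 27196 genes for the comparison of GALNT3/T6 KO with Ctrl. It recovered 34% of changes of 1 on the log2 scale and 70% of changes of 2. These rates hold for the simulated data alone. Recovery with 47.9% of all genes called, as in the measured comparison, was not tested. Channel levels are log2 signals after loess and Aquantile, and no level of a probe is set against that of another.

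The genes named are GALNT3 and GALNT6, the members with every probe, the 3 largest calls per list and comparison that run alike on both arrays, the 5 genes nearest to CD36 and its neighbours within 1000 kb. A gene that this rule names is not reported here. The members and the lists were chosen with earlier results of these data known. Alternatives were other background corrections and scalings, other filters, the mean of all probes, each array left out, a replicate block and the methods' criterion of p and fold. The other probes, a crossed block and removal of a trend over the rows were chosen after the data were seen. Replicate numbers were not taken as pairs, and probe positions are hg19 as the files list them. Replicates are clones, so p-values measure the spread between clones. Per the paper, GALNT6 was targeted in GALNT3 KO clones. The parent of each double-KO clone is not labelled, so the clones may not be independent of each other.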

Additional observations from a re-analysis of the deposited data

Results flagged for a closer look

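The effects of the groups against Ctrl differed from each other, by limma's test of the difference over all genes, for 3 members. As log2 differences of the arrays labelled GALNT3/T6 KO minus GALNT3 KO these were -1.083 for CD36, -2.254 for FABP5 and 1.245 for PPARG, and all 3 calls were lost without GALNT3 KO replicate 1.

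Among the genes named from the lists, 28 also passed this test. Of these, 21 were named as the largest calls of this same comparison, so that their differing was fixed by the choice, and 7 (DBI, DECR1, CRAT, ANGPTL4, LRP8, FITM2 and VAV3) were named only for a comparison with Ctrl. Large values in GALNT3 KO named these 7 and also enter the difference, so their differing is not free of the choice either. RXRA lost its difference with the mean of all its probes (-0.513, adjusted p = 0.0992). Among transporters and binding proteins, CAV1 by 4.18, SLC27A2 by 3.101, CAV2 by 2.845 and DBI by 0.6614 differed on the log2 scale. Among acyl-CoA synthetases, ACSS1 by 2.468, ACSS3 by -2.127 and ACSF3 by -1.108 differed. Among oxidation enzymes, DECR1 by -0.7406, CRAT by -0.8775, ETFB by -1.578, CPT1C by -1.484 and HADHA by -1.382 differed. Among nuclear receptors and coactivators, CEBPB by 3.769, PPARGC1B by -2.387 and RXRA by -2.236 differed. Among lipases and lipoprotein receptors and their ligands, VLDLR by 3.737, OLR1 by 3.34, LRP8 by 0.769, ANGPTL4 by -1.705 and APOE by -2.569 differed. In triglyceride synthesis and lipid droplets, AGPAT3 by 2.213, LPIN2 by 1.78, PLIN2 by 1.936 and FITM2 by 0.9067 differed. Of the ligands, partners and kinases of CD36, CD9 by 4.319, ITGA3 by 3.101, THBS2 by 2.777 and VAV3 by -2.278 differed. The highest adjusted p among these 31 results was 0.0315 by limma.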

How the results depend on the processing

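Members were called as in the report under most alternatives, except FABP3 in the clones labelled GALNT3/T6 KO, which kept its call under 7 of 17. In GALNT3 KO the count of 0 rose to 6 with only the arrays of the group fitted (leaving out 1 array gave 0 to 6), in the clones labelled GALNT3/T6 KO it was 2 to 6 with 1 array left out, and between the groups 0 to 4. The listed genes called in GALNT3 KO numbered 5 with the Agilent log ratio and with the deposited value table, 53 with only the arrays of the group, 7 with the row trend removed and 0 to 53 with 1 array left out. Between the groups they numbered 15 to 89 with 1 array left out. The lone array left in a group is then assumed to vary like the other group. The difference of CD36 fell short with the mean of all probes (-0.717) and with its second probe (-0.35), and with 1 array left out it ran from -1.31 to -0.858. Over all genes the calls in GALNT3 KO numbered 3053 (42.65% higher), 590 with the Agilent log ratio (33.39% higher), 2330 with median centring (23.48% higher), 722 with the row trend removed and 9441 with only the arrays of the group.

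Replicate numbers did not pair the arrays: the deviations of same-numbered arrays correlated at -0.238 across 27196 genes, which are not independent replicates. With a replicate block 0 listed genes were called in GALNT3 KO (82 of all genes), and of the member calls only that of FABP3 in the clones labelled GALNT3/T6 KO was lost (adjusted p = 0.06). With the crossed pairing 0, 4 and 3 members and 24, 98 and 77 listed genes were called in the 3 comparisons.

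Signs turned for values near 0 and for FABP3. FABP3 in GALNT3 KO was -0.000565 with the Agilent log ratio and the value table, -0.037 with the mean of all probes, -0.0439 with the row trend removed and -0.133 with its mRNA probe. In the clones labelled GALNT3/T6 KO it was -0.11 with the mean of all probes and -0.605 with the mRNA probe, and between the groups -0.0732 and -0.472. FABP4 was -0.00014 in GALNT3 KO with the row trend removed, -0.0061 to 0.176 on the other arrays with 1 array left out, and between the groups -0.0324 with median centring and -0.0716 to 0.111 with 1 array left out. FABP5 was -0.00307 in GALNT3 KO with probe A_24_P7642. FABP7 in the clones labelled GALNT3/T6 KO was -0.0807 with the Agilent log ratio, -0.0806 with the value table, -0.0717 with the row trend removed and -0.0925 to 0.248 with 1 array left out. LPL was -0.0198 to 0.347 in GALNT3 KO with 1 array left out, and between the groups -0.043 with median centring and -0.152 to 0.215 with 1 array left out. SCARB1 between the groups was -0.0469 with the Agilent log ratio, -0.048 with the value table, -0.00948 with the mean of all probes, -0.109 with probe A_23_P369201 and -0.354 to 0.372 with 1 array left out. ACSL1 in the clones labelled GALNT3/T6 KO was -0.408 to 0.026 with 1 array left out, and CPT1A 0.132 with probe A_24_P347065. The cause was not tested. Dim signal limits LPL and the mRNA probe of FABP3.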
